A study of Homo sapiens with 6 samples.

Results

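The genes PIK3CA, PIK3CB, PDPK1, AKT1, AKT2, RPTOR, RICTOR, TSC1 and TSC2 were examined for accessible chromatin in 6 ATAC-seq libraries of Huh7, a long-established human liver cancer line. They were taken by name, with coordinates from RefSeq GRCh38.p14, and are 9 of 19970 protein-coding genes on chromosomes 1 to 22 and X. Every peak inside a gene or within 10 kb of it was used, which gave 68 summits in 26 of the 28879 regions formed by merging the overlapping peaks of all libraries. A gene-end peak is one that overlapped the 1000 bp on either side of an annotated end of the gene, and the end at which transcription begins is called the gene start. ATAC-seq marks DNA that the Tn5 transposase can reach, so the values describe accessibility and not expression.

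All groups shared a knockout of the cells' own ARID1A, which encodes a subunit of the SWI/SNF (BAF) remodeller of nucleosomes, and a stably expressed lentiviral copy of ARID1A with a Flag tag. In V2084D shSTUB1 cells this copy carried the missense change V2084D and STUB1, a ubiquitin ligase that works with chaperones, was knocked down. V2084D cells carried the same missense copy without the knockdown, and WT cells carried the wild-type copy. Each group had 2 libraries, prepared from frozen nuclei. The labels name no control hairpin for V2084D or WT cells, so lowering STUB1 and carrying a hairpin cannot be told apart. They state neither whether the knockout line was 1 clone nor whether replicates came from separate cultures, so a p-value covers no more than the spread among these libraries, which may be technical.

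PI3-kinase phosphorylates a membrane lipid after insulin or growth factor receptors are engaged, and the product recruits PDPK1 and AKT to the membrane, where PDPK1 and the RICTOR-containing mTOR complex phosphorylate AKT. Active AKT phosphorylates TSC2, which with TSC1 holds the small GTPase RHEB inactive. Release of RHEB switches on the RPTOR-containing mTOR complex, which drives protein synthesis and restrains autophagy. In the liver the pathway carries the insulin response, and it is often active in hepatocellular carcinoma.

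The start regions of 6 of the 9 genes are shown because they span the range of what the libraries listed. Within 1000 bp of the start TSC2 had a peak in 6 libraries, RICTOR in 5, and AKT2 and RPTOR in 3, while PDPK1 and AKT1 had none. Peaks overlapped the printed stretch itself in 6 libraries at TSC2, 4 at RICTOR, 3 at AKT2 and 1 at RPTOR. Sequences are from RefSeq GRCh38.p14, read 5′ to 3′ on the gene's own strand, and end 30 bases into the transcribed part. Capitals mark matches to any of 8 short motifs searched on both strands and named here after the factors known to bind them. The ETS motif was searched as CCGGAAG, the NRF1 motif as GCATGCG, the YY1 motif as AAGATGG and the SP1/KLF motif as GGGCGG. The CREB/ATF motif was searched as TGACGT, the E-box as CACGTG, the AP-1 motif as TGANTCA and the NFY box as CCAAT. The TSC2 stretch, chr16:2047835-2048014 on the plus strand, begins at the border of the neighbouring NTHL1 gene, 150 bases before the TSC2 start. The others begin 250 bases before the start and lie at chr5:39074370-39074649 (RICTOR, minus strand), chr19:40285316-40285595 (AKT2, minus), chr17:80544588-80544867 (RPTOR, plus), chr16:2537771-2538050 (PDPK1, plus) and chr14:104795719-104795998 (AKT1, minus).
TSC2: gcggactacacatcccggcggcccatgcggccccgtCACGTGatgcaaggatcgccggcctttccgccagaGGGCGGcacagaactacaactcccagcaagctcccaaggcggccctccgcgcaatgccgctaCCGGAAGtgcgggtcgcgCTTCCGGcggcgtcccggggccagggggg
RICTOR: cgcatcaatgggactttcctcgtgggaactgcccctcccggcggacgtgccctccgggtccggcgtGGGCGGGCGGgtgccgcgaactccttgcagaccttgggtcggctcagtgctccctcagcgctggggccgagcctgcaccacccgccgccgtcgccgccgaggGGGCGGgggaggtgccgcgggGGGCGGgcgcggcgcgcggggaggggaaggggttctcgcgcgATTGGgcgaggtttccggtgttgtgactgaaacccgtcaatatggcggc
AKT2: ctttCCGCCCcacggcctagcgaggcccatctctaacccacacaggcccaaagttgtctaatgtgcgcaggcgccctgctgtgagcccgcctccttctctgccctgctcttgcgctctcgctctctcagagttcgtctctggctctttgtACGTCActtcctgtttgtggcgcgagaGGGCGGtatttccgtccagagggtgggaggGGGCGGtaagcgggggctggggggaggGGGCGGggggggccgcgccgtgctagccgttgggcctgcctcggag
RPTOR: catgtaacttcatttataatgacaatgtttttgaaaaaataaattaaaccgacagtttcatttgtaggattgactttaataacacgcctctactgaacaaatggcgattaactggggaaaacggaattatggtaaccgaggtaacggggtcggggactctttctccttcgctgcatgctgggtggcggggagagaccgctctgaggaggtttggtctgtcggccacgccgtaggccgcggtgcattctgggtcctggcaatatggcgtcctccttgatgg
PDPK1: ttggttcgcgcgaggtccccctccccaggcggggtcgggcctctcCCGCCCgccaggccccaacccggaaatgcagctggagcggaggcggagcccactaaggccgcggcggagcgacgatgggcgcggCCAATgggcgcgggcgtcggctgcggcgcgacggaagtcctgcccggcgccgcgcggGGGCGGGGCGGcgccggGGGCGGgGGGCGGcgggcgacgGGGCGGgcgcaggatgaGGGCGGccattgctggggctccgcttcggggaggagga
AKT1: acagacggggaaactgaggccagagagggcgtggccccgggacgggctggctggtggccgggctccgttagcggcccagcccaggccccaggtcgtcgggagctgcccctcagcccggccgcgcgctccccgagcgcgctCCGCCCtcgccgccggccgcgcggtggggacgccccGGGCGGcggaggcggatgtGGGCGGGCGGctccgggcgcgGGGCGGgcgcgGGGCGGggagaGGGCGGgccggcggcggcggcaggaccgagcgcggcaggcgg

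The 6 peak lists differed in length and depth. They held 16687 and 12320 merged regions in V2084D shSTUB1, 8008 and 22215 in V2084D, and 8861 and 6394 in WT. Depth recovered from the deposited values and set relative to the shallowest library was 1.49 and 1.23 in V2084D shSTUB1, 1.17 and 1.70 in V2084D, and 1.01 and 1 in WT. Summits rested on medians of 8 to 12 reads per library, and a gene without a listed peak may still be accessible below what this depth allows to be called. Of 17 hepatocyte marker genes 14 had no gene-end peak in any library, ALB among them, beside 41.8% of all protein-coding genes. APOA1, TF and FOXA1 had one in 3, 4 and 1 libraries. ARID1A had a gene-end peak only in V2084D shSTUB1 replicate 2 and STUB1 had none, but accessibility at these genes tests neither the edit, whose position was not given in the sources used here, nor a hairpin that targets RNA.

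Peaks at the 9 genes were mostly small and lay at gene starts and inside the genes. Of the 26 regions, 11 were at a gene start, 3 at the far gene end, 11 inside a gene and 1 in a flank, and the starts held 38 of the 68 summits. The fold over local background ran from 3.54 to 10.7 with a median of 5, and summits held 5 to 35 reads with a median of 9. Of these regions 42.3% were seen in 1 library alone, beside 44.3% of all merged regions, and 1 region, at TSC2, was present in every library (3.85%, beside 11.3% of all merged regions). A gene-end peak was listed for 8 and 7 of the 9 genes in V2084D shSTUB1, for 2 and 9 in V2084D, and for 3 in each WT library. RICTOR, TSC1 and TSC2 had one in both WT libraries, and the other 6 genes in neither.

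**Figure D1:**
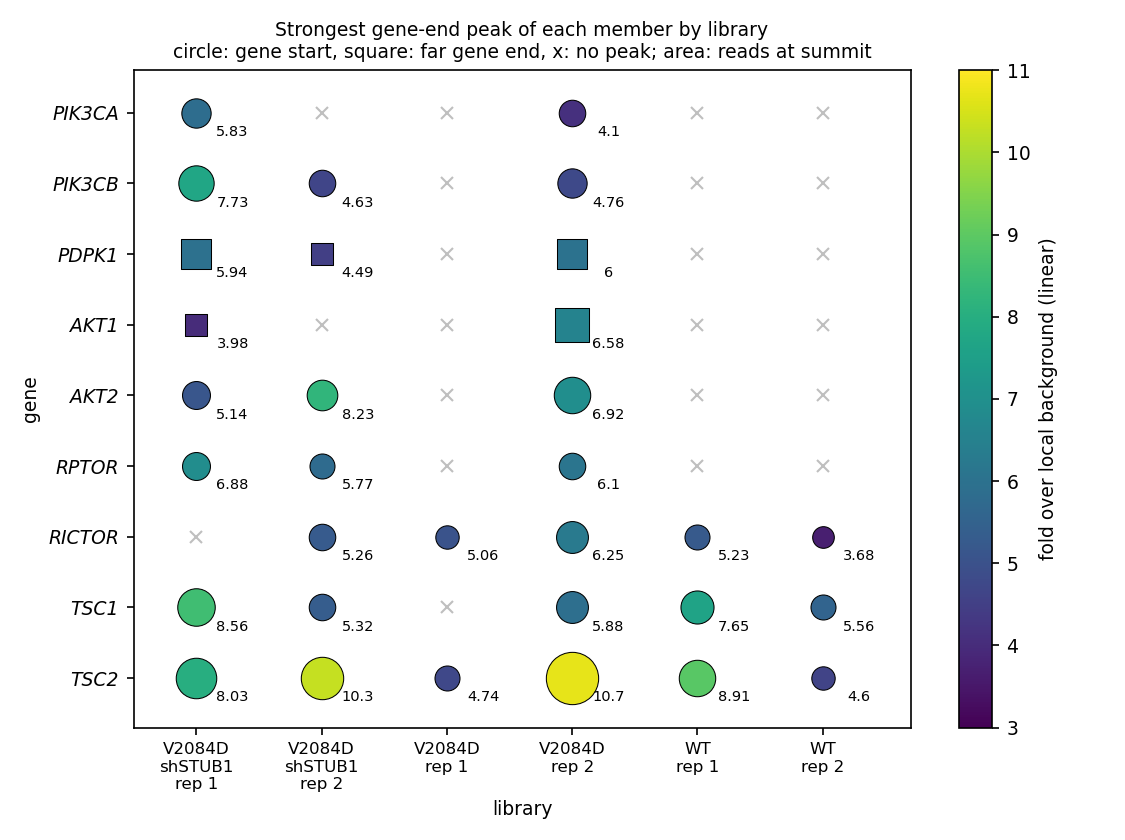
Strongest gene-end peak of each of the 9 genes in each of the 6 libraries. Colour and the printed number give the deposited fold over local background on a linear scale, the symbol's area gives the reads at the summit, circles lie at the gene start, squares at the far gene end, and crosses mark no listed peak. TSC2 has a peak in all 6 libraries with folds of 4.6 to 10.7, and V2084D replicate 1 lacks a peak at 7 of the 9 genes.

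The catalytic subunit genes of class I PI3-kinase, PIK3CA and PIK3CB, had gene-start peaks in V2084D shSTUB1 and V2084D libraries and in neither WT library. PIK3CA (gene ID 5290, chromosome 3, 179148126 to 179240093), which encodes p110-alpha and is often mutated in cancer, had a start peak with a fold of 5.83 and 11 reads in V2084D shSTUB1 replicate 1. It had 3 start peaks in V2084D replicate 2, with folds of 3.72, 4.1 and 3.78 and 8, 9 and 8 reads. No PIK3CA peak was listed in V2084D shSTUB1 replicate 2, V2084D replicate 1 or either WT library. The peaks of the libraries that had one overlapped, with summits 92 bp upstream of the annotated start in V2084D shSTUB1 replicate 1 and 4 bp downstream of it in V2084D replicate 2.

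PIK3CB (gene ID 5291, chromosome 3, 138652698 to 138834928), which encodes p110-beta, had start peaks with folds of 7.73 and 4.63 and 16 and 9 reads in V2084D shSTUB1 replicates 1 and 2. In V2084D replicate 2 a pair of start peaks flanked the annotated start, with summits at 119 and 436 bp upstream and 306 and 581 bp downstream, and the strongest had a fold of 4.76 and 11 reads. V2084D replicate 1 and both WT libraries listed no peak at PIK3CB at all. A peak with summits 140384 and 140387 bp inside the gene (chromosome 3, 138694437 to 138694670) was listed in both V2084D shSTUB1 libraries, with folds of 5 and 7.26 and 6 and 8 reads, and in no other library. It lay 13077 and 13080 bp downstream of a second listed start of the gene. The other body peaks were each seen in 1 library, V2084D shSTUB1 replicate 2 (fold 5.09) and V2084D replicate 2 (fold 4.79).

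PDPK1 and the AKT genes, the kinases recruited to the membrane, differed in where their peaks lay. PDPK1 (gene ID 5170, chromosome 16, 2538021 to 2603188), which encodes the kinase that phosphorylates the activation loop of AKT, had no start peak in any library. Peaks 224 to 697 bp beyond its far end were listed in both V2084D shSTUB1 libraries, with folds of 5.94 and 4.49 and 11 and 6 reads, and in V2084D replicate 2, with a fold of 6 and 11 reads, and the 3 overlapped. V2084D replicate 1 and the WT libraries listed none there. A flanking peak about 6 kb upstream, at the ends of AMDHD2 and CEMP1, appeared in V2084D replicate 2 (summit 6171 bp upstream, fold 4.35) and WT replicate 2 (5955 bp, fold 4.59). Reads at PDPK1 are uncertain, since the near-identical pseudogene PDPK2P lies downstream of it on the same chromosome.

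AKT1 (gene ID 207, chromosome 14, 104769349 to 104795748), an AKT isoform gene, had no peak within 1000 bp of its outer start in any library. A peak inside the gene, 1472 to 1532 bp from the outer start and 615 to 675 bp upstream of a second listed start, was present in V2084D shSTUB1 replicates 1 and 2 (folds 4.37 and 4.46, 8 reads each) and in V2084D replicate 2 (fold 4.02, 8 reads). None was listed there in V2084D replicate 1 or either WT library. At the far end, V2084D shSTUB1 replicate 1 had a peak with a fold of 3.98 and 6 reads, and V2084D replicate 2 had 2 peaks with folds of 6.58 and 3.54 and 14 and 7 reads. WT libraries therefore had no peak anywhere in AKT1 or within 10 kb of it.

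AKT2 (gene ID 208, chromosome 19, 40230317 to 40285345), the isoform gene best known for the insulin response, had 1 region, at its start. V2084D shSTUB1 replicate 1 carried 2 peaks there with folds of 4.67 and 5.14 and 9 and 10 reads, and replicate 2 carried 1 with a fold of 8.23 and 12 reads. V2084D replicate 2 had a peak with a fold of 6.92 and 17 reads, and V2084D replicate 1 and both WT libraries had none. Summits lay 294 bp upstream and 33 bp downstream in V2084D shSTUB1 replicate 1, 283 bp upstream in V2084D shSTUB1 replicate 2 and 39 bp upstream in V2084D replicate 2.

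**Figure D2:**
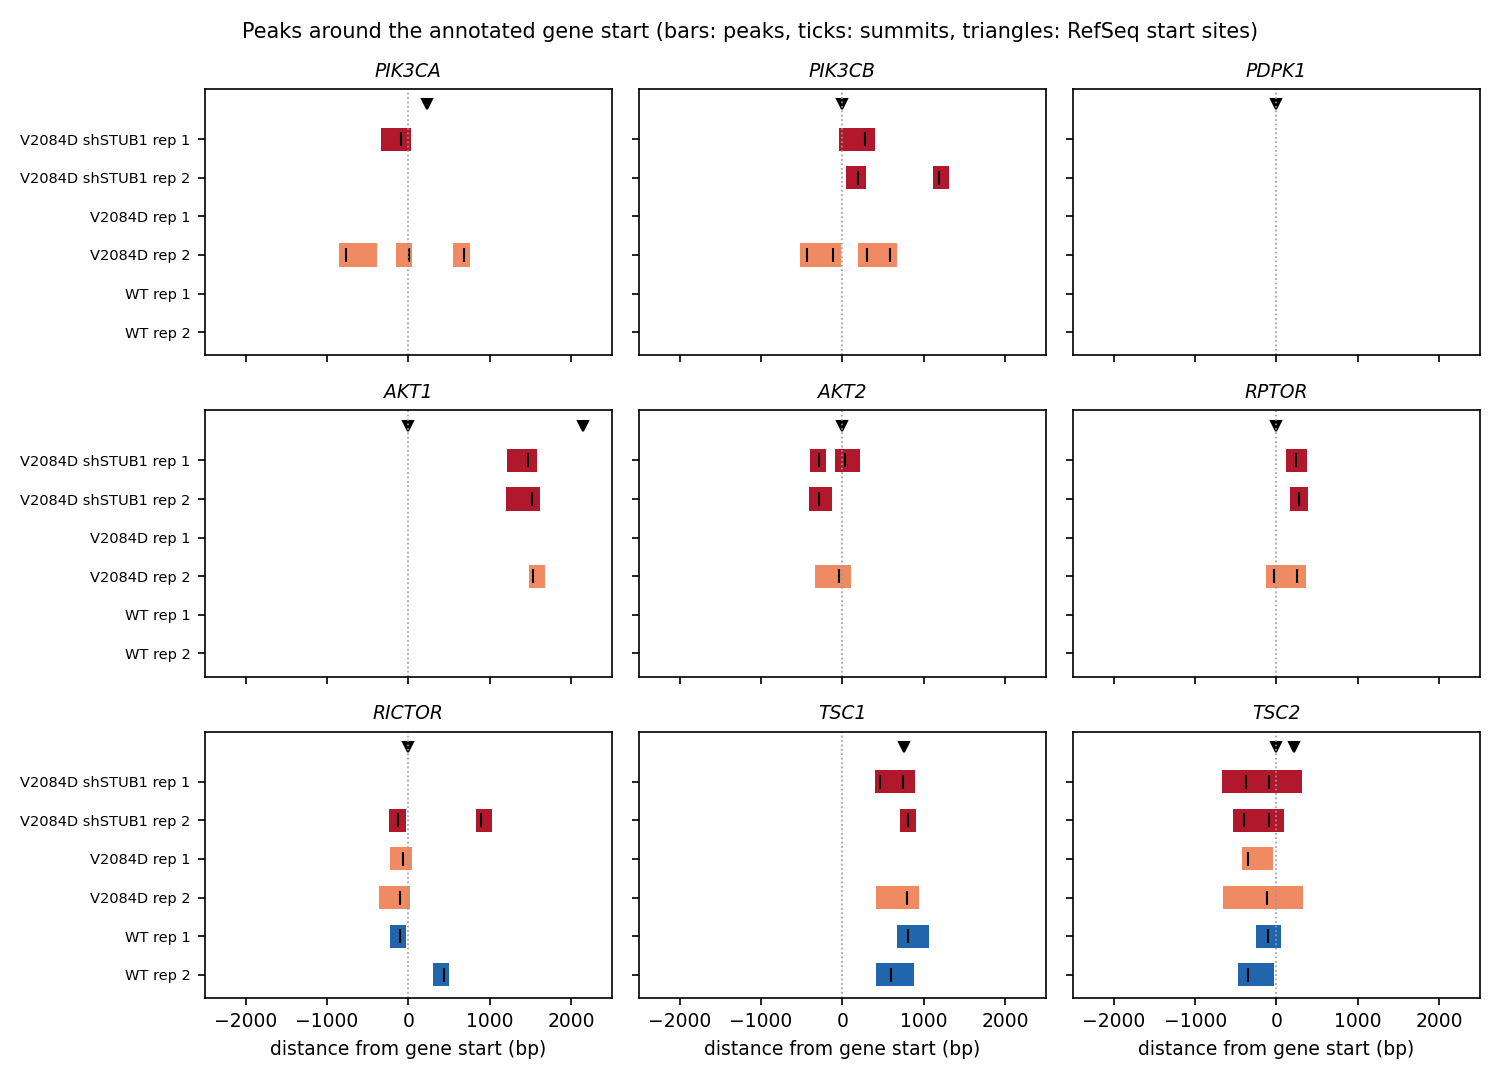
Peaks around the annotated gene start of each gene, in rows by library. Bars span the listed peaks, ticks mark their summits, triangles mark the start sites listed by RefSeq, and the x axis gives the distance from the gene start in bp along the direction of transcription. PDPK1 has no peak in this window in any library, the AKT1 peaks lie 1472 to 1532 bp inside the gene, and the TSC2 peaks of all 6 libraries overlap.

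RPTOR and RICTOR define the 2 mTOR complexes, and their start peaks had different library patterns. RPTOR (gene ID 57521, chromosome 17, 80544838 to 80966368), the scaffold that brings substrates to the first complex, had a start peak with folds of 6.88 and 5.77 and 10 and 8 reads in V2084D shSTUB1 replicates 1 and 2. In V2084D replicate 2 the start peak had 2 summits with folds of 6.1 and 5.56 and 9 and 8 reads, and V2084D replicate 1 and both WT libraries had no start peak. Summits downstream of the start fell between 242 and 276 bp in the 3 libraries, and the second summit of V2084D replicate 2 was 34 bp upstream.

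RPTOR also had 6 body regions, more than any of the other 8 genes, and it is the longest of the 9 at 421531 bp. Unlike the start, the gene body had a peak in every library. A region with summits 288120 to 288467 bp from the start (chromosome 17, 80832854 to 80833478) was listed in V2084D shSTUB1 replicate 2 (fold 5), in both V2084D libraries (folds 6.08 and 5.11) and in WT replicate 2 (fold 3.8). Another with summits 346646 to 346871 bp from the start (80891194 to 80891884) was listed in V2084D shSTUB1 replicate 1 (fold 5.94), both V2084D libraries (folds 6.08 and 3.66) and WT replicate 1 (fold 4.76). That second region lies at the end of LOC124904075, a predicted protein-coding gene within RPTOR, and a peak next to it (80892096 to 80892592) was listed in V2084D shSTUB1 replicate 1, V2084D replicate 2 and WT replicate 1. V2084D replicate 2 alone listed the remaining 3 body regions.

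**Figure D3:**
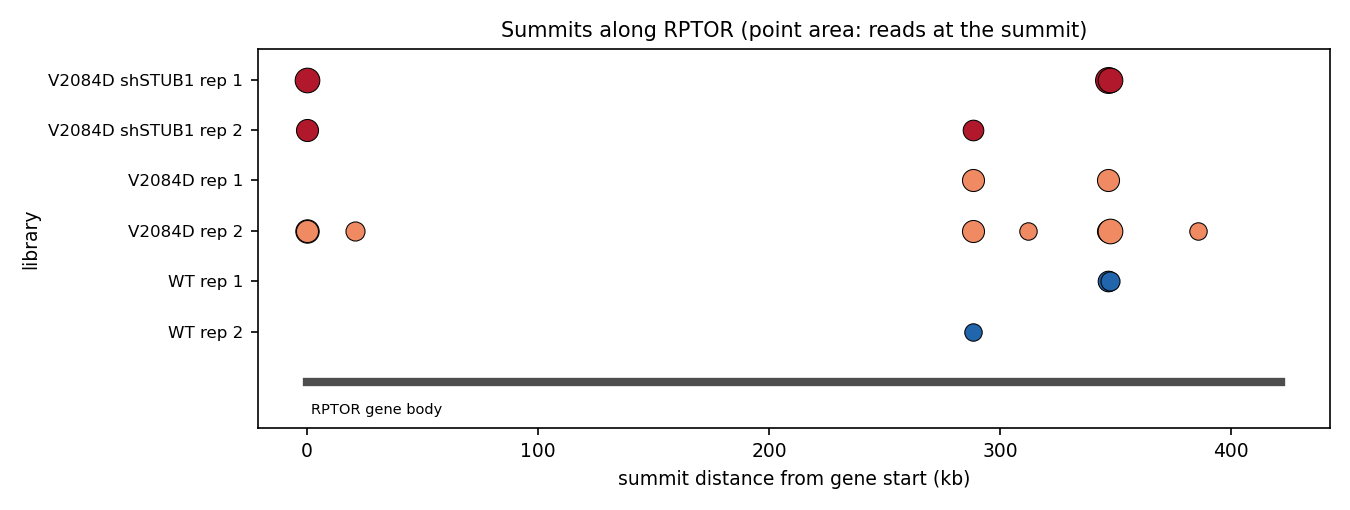
Summits along RPTOR in each library. The x axis gives the distance from the gene start in kb, the grey bar marks the gene, and the area of each point gives the reads at the summit (5 to 11). Start peaks are present in both V2084D shSTUB1 libraries and V2084D replicate 2 only, whereas the regions 288120 to 288467 bp and 346646 to 346871 bp from the start each include both V2084D libraries and 1 WT library.

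RICTOR (gene ID 253260, chromosome 5, 38937920 to 39074399), the defining subunit of the second mTOR complex, had start peaks in 5 libraries and lacked one in V2084D shSTUB1 replicate 1, the second longest list. V2084D shSTUB1 replicate 2 had 2 separate peaks, with folds of 3.65 and 5.26 and 6 and 9 reads and summits 131 bp upstream and 890 bp downstream of the start. The V2084D libraries had folds of 5.06 and 6.25 with 7 and 13 reads, and the WT libraries 5.23 and 3.68 with 8 and 6 reads. The peaks just upstream of the start overlapped in V2084D shSTUB1 replicate 2, both V2084D libraries and WT replicate 1, whereas that of WT replicate 2 had its summit 434 bp downstream and missed the gene-end peaks of the other libraries by 266 to 335 bp. The pattern of a gene-end peak in every library but V2084D shSTUB1 replicate 1 was held by 18 protein-coding genes (0.0901%). One of them was PIK3R4, the regulatory subunit gene of the class III PI3-kinase, with folds of 6.07 in V2084D shSTUB1 replicate 2, 5.21 and 6.12 in V2084D, and 4.71 and 3.85 in WT.

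The TSC genes, whose products restrain mTOR, had gene-start peaks in all groups. TSC1 (gene ID 7248, chromosome 9, 132891349 to 132945378) had folds of 8.56 and 5.32 with 18 and 9 reads in V2084D shSTUB1 replicates 1 and 2. In V2084D the peak was listed in replicate 2 alone, with a fold of 5.88 and 13 reads, and the WT libraries had folds of 7.65 and 5.56 with 14 and 8 reads. All of these peaks overlapped and covered the start listed by RefSeq, which lies 762 bp inside the annotated end of the gene. The region is shared with the end of GFI1B, a transcription factor gene of blood cells. The TSC1 pattern was held by 573 genes (2.87%), among them DEPTOR, an inhibitor bound to mTOR, and INPPL1, a lipid phosphatase gene.

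TSC2 (gene ID 7249, chromosome 16, 2047985 to 2089491), which carries the GTPase-activating domain for RHEB, had the strongest peak of the 9 genes and the only region present in all 6 libraries (2047313 to 2048312). Its highest fold was 8.03 and 10.3 in V2084D shSTUB1 replicates 1 and 2, with 21 and 23 reads. In the V2084D libraries it was 4.74 and 10.7 with 8 and 35 reads, and in the WT libraries 8.91 and 4.6 with 17 and 7 reads. V2084D replicate 1 and WT replicate 2 were low and the other 4 libraries high, so the groups overlapped. Summits fell at 2 places: 90 to 120 bp upstream of the start in V2084D shSTUB1 replicates 1 and 2, V2084D replicate 2 and WT replicate 1, and 348 to 394 bp upstream in both V2084D shSTUB1 libraries, V2084D replicate 1 and WT replicate 2. The peaks of V2084D replicate 1 and WT replicate 2 ended at 2047945 and 2047955, before the start. The first place lies between NTHL1 and TSC2, in the printed stretch with 2 ETS, 1 SP1/KLF and 1 E-box match. The second lies inside NTHL1, a DNA repair gene with an annotated end in the same region. Whether that end is the start of NTHL1 was not examined, so the region cannot be assigned to TSC2 alone. The TSC2 pattern, a gene-end peak in every library, was held by 3161 genes (15.8%).

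The comparison of V2084D with WT asks what the missense form of ARID1A changes. No gene of the 9 was marked at an end in both V2084D lists and neither WT list (0 of 9, beside 5.07% of all protein-coding genes), and none had one in both WT and neither V2084D library (0 of 9, beside 0.0501%). The V2084D libraries disagreed with each other: replicate 1 had a gene-end peak at RICTOR and TSC2 alone, and replicate 2 at all 9 genes. Member regions numbered 4 and 21 in V2084D (12.5 ± 12, SD, n = 2) and 5 in each WT library (5 ± 0, SD, n = 2), a difference of 7.5 (p = 1, exact permutation test over libraries, two-sided). With 2 libraries against 2 the smallest p this test allows is 0.333. Without V2084D replicate 2 the difference reversed to -1.

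The comparison of V2084D shSTUB1 with V2084D concerns the effect of the knockdown where the missense form is present. No gene was called in either direction: 0 of 9 were marked in both V2084D shSTUB1 lists and neither V2084D list (beside 0.366% of all genes), and 0 of 9 the reverse (beside 0.656%). The PIK3CB body peak 140384 bp from the start was the 1 member region of 26 with a peak in both V2084D shSTUB1 and neither V2084D library, beside 1.29% of all regions. V2084D shSTUB1 libraries held 12 and 13 member regions (12.5 ± 0.707, SD, n = 2) and V2084D libraries 4 and 21, so the means were equal and the difference was 0 (p = 1, exact permutation test). Leaving out V2084D replicate 1 made it -8.5 and leaving out V2084D replicate 2 made it 8.5.

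The comparison of V2084D shSTUB1 with WT sets the missense form with the knockdown against wild-type ARID1A. At PIK3CB, PDPK1, AKT2 and RPTOR both V2084D shSTUB1 lists and neither WT list held a gene-end peak, 4 of 9 beside 7.07% of all protein-coding genes, and 0 of 9 had the reverse (beside 0.135%). In the gene body or within 10 kb, PIK3CB, AKT1 and AKT2 met the same rule (3 of 9, beside 8.50% of all genes). By regions, 6 of 26 did, at the starts of PIK3CB, AKT2 and RPTOR, the far end of PDPK1 and inside PIK3CB and AKT1, beside 8.46% of all regions. Member regions numbered 12 and 13 in V2084D shSTUB1 and 5 in each WT library, a difference of 7.5 that was larger than the spread within either group and reached the smallest p the exact permutation test allows (0.333, two-sided).

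Both V2084D shSTUB1 lists were longer and deeper than both WT lists, and the part of list length and depth in that result was not tested. Per 1000 regions of the same list, member regions numbered 0.719 and 1.06 in V2084D shSTUB1 and 0.564 and 0.782 in WT, so the groups overlapped (difference 0.214, p = 0.667, exact permutation test, two-sided). With every list reduced to its 7234 strongest summits the difference in member regions reversed to -0.5 (p = 1, exact). It was 6 with reads scaled to the lowest depth and 4 with a −log10 q of at least 5 (p = 0.333 each, exact permutation test). V2084D replicate 2, the deepest library, listed a peak at the ends of all 4 genes, and V2084D replicate 1 at none. The relative depth of V2084D replicate 1 was 1.17, against 1.23 in V2084D shSTUB1 replicate 2 and 1.01 and 1 in WT. Of the 1412 genes called in the same direction, 95.0% had a gene-end peak in V2084D replicate 2 and 44.1% in V2084D replicate 1. At equal list length 0 of the 9 were called (beside 1.75% of all genes), and with a −log10 q of at least 5 likewise 0 of 9 (beside 6.11%). With reads scaled to the lowest depth all 4 were called (4 of 9, beside 5.96%). The leukocyte factor gene SPI1 had the same library pattern, which gave 1 and 1 of 5 leukocyte markers in V2084D shSTUB1, 0 and 1 in V2084D, and 0 in each WT library, and the defining marker PTPRC had no gene-end peak in any library. Of 4 endothelial markers KDR alone had a gene-end peak, in 5 libraries. Of 4 fibroblast and stellate markers COL1A1 alone had one, in all 6.

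**Figure D4:**
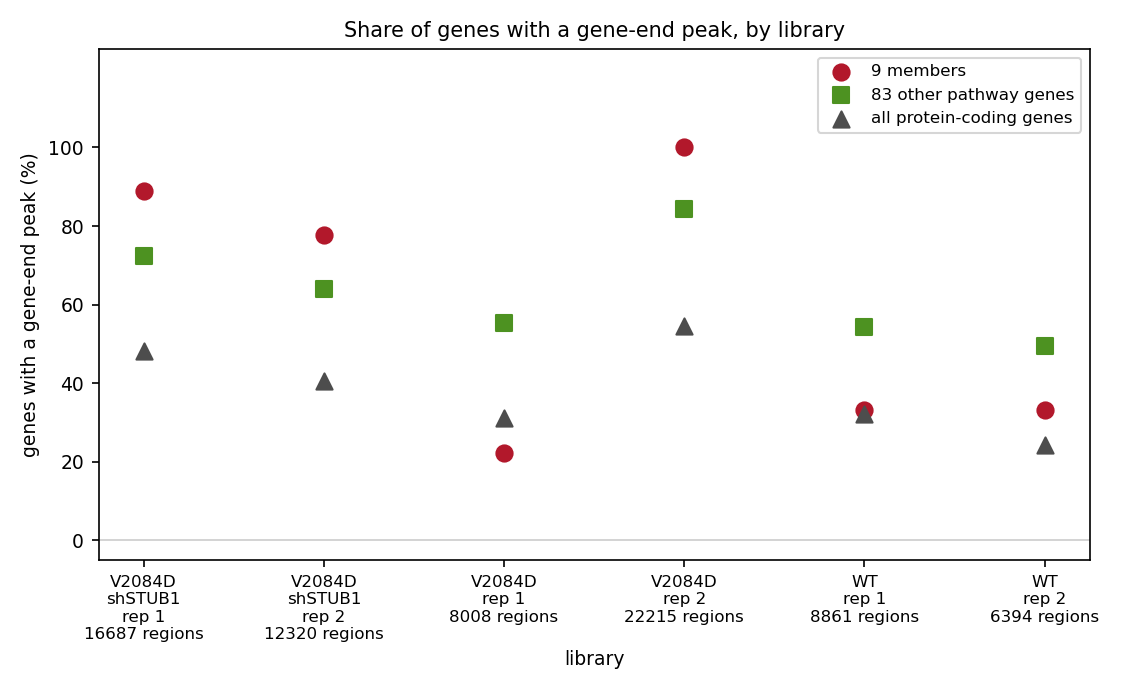
Percent of genes with a gene-end peak in each library, for the 9 genes (circles), 83 other pathway genes (squares) and all protein-coding genes (triangles), with the number of merged regions of each list under its name. The 9 genes reach 88.9% and 77.8% in V2084D shSTUB1, 22.2% in V2084D replicate 1, every gene in V2084D replicate 2, and 33.3% in each WT library, against 48.1% and 40.6%, 31.1% and 54.7%, and 32.3% and 24.2% of all genes.

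Across 83 other genes of the pathway, a gene-end peak was listed for 60 and 53 in V2084D shSTUB1, 46 and 70 in V2084D, and 45 and 41 in WT, and 27 had one in every library. In each library the share was above that of all genes, from 49.4% against 24.2% in WT replicate 2 to 84.3% against 54.7% in V2084D replicate 2. The 27 included the kinase gene MTOR (folds 5.75 and 6.76 in V2084D shSTUB1, 3.97 and 7.14 in V2084D, 3.85 and 4.11 in WT) and RHEB (5.94 and 9, 7.56 and 7.26, 6.96 and 4.94 in the same order). TBC1D7, the partner of TSC1 and TSC2, the mTOR substrate gene RPS6KB1 and the mTOR inhibitor gene AKT1S1 were among them as well. No gene-end peak was listed in any library for 12 of the 83, beside 41.8% of all protein-coding genes. Among the 12 were IRS2, an insulin receptor substrate gene, the AKT-regulated transcription factor genes FOXO1 and FOXO3, and TFEB. The 12 also included ULK1, which starts autophagy, and STK11, the kinase upstream of AMPK.

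Called genes of the list were few. In V2084D and not in WT there were 4, among them MLST8, an mTOR subunit, and the amino acid sensing genes RRAGD and DEPDC5 (4 of 83, 4.82%, beside 5.07% of all genes). In V2084D shSTUB1 and not in WT there were 6, among them ILK, RRAGD, the S6 kinase gene RPS6KB2 and the AMPK subunit gene PRKAA2 (6 of 83, 7.23%, beside 7.07%). Both shares were near those of all genes. ILK, RPS6KB2 and PRKAA2 had the same library pattern as PIK3CB, PDPK1, AKT2 and RPTOR, which 730 genes (3.66%) shared. PIK3CD, MET, IGF1R and LAMTOR3 had the pattern of PIK3CA and AKT1, with a peak in V2084D shSTUB1 replicate 1 and V2084D replicate 2 only, as had 792 genes (3.97%).

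PHLPP1 and SESN3 had a peak in both V2084D and both WT libraries and in neither V2084D shSTUB1 library, a pattern of 7 genes in all (0.0351%). These were 2 of 83 (2.41%), beside 0.656% of all genes against V2084D and 0.135% against WT. PHLPP1, a phosphatase that acts on AKT, had folds of 3.75 and 4.85 with 5 and 12 reads in V2084D and 5.05 and 4.41 with 9 and 8 reads in WT, at overlapping peaks 286 to 396 bp upstream of its start. SESN3, a stress-induced inhibitor of the RPTOR complex, had folds of 5 and 5.03 with 8 and 14 reads in V2084D and 5.05 and 5.24 with 10 reads each in WT. The SESN3 summits lay 959 to 1026 bp inside the gene, so its call rests on peaks at the edge of the 1000 bp window.

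**Figure D5:**
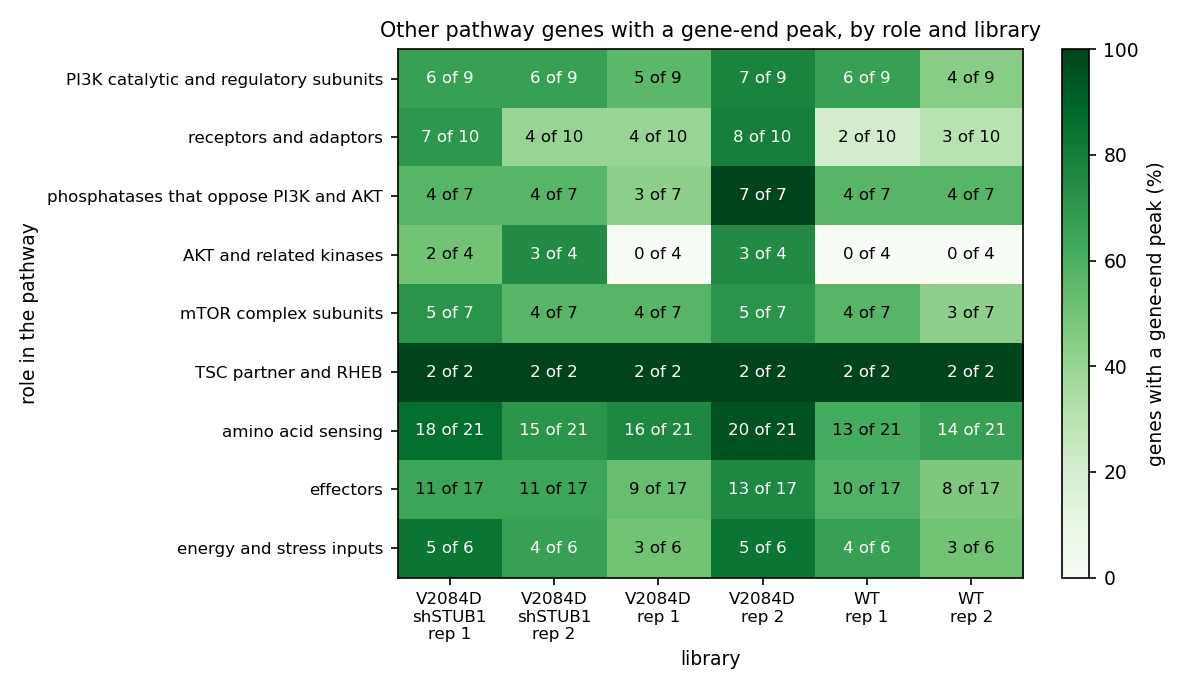
Number of the 83 other pathway genes with a gene-end peak, by role (rows) and library (columns), with colour giving the percent of the genes of each role. The TSC partner and RHEB genes have a peak in every library. Of the 4 AKT-related kinase genes 2 and 3 have one in V2084D shSTUB1, 0 and 3 in V2084D, and 0 in each WT library. Of the 9 roles it is the only one with none in WT, where 32.3% and 24.2% of all genes have one. This count of 4 genes was not tested, and 1 of them, SGK1, has no gene-end peak in any library.

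Base composition differed among the start regions of the 9 genes. Over the 300 bases around each listed start, GC content was 83.3% at the outer start of AKT1 and 80% at PDPK1, at percentiles 99.3 and 97.0 of 22131 promoters, and neither had a peak within 1000 bp in any library. The second listed starts of PIK3CB and AKT2 had none either, at 37.7% and 64.0% GC (percentiles 4.45 and 55.9), so starts without a peak were not all rich in GC. It was 74.0% at RICTOR and PIK3CB, 73.0% at the first start of TSC2, 68.0% at AKT2, 61.7% at TSC1, 60.7% at PIK3CA and 48.0% at RPTOR, where the median of all promoters was 62.3%. Among all genes, 44.5% of the 557 with at least 80% GC had no start peak in any library, against 24.0% of the 3575 genes from 70 to 80%. The share was 28.3% of the 5348 genes from 60 to 70%, 46.8% of the 3522 from 50 to 60%, and 79.1% of the 2809 under 50%. RPTOR, with a start peak in 3 libraries, is in that last class. The part of base composition in the missing start peaks of AKT1 and PDPK1 was not tested.

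The searched motifs were unevenly spread over these start regions. The SP1/KLF motif, found in 56.3% of promoters, occurred 7 times each at the outer AKT1 start and at PDPK1, 4 times each at RICTOR and AKT2, and not at all at RPTOR, which held none of the 8 motifs. The ETS motif was found at TSC2 (2 matches), TSC1 and PIK3CA (1 each), beside 12.8% of all promoters. The YY1 motif was found at TSC1 (6.05% of promoters), the E-box at TSC2 (8.34%) and the CREB/ATF motif at AKT2 (8.92%), and an NFY box at PIK3CA, PIK3CB, PDPK1 and RICTOR (34.6%). A match describes these letters and is not evidence that a factor was bound.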

How the data were processed

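ATAC-seq was run on ARID1A-knockout Huh7 cells, and the sample titles gave the groups. The tools named in the submitters' processing notes are MACS2, Bowtie2, Trimmomatic, Picard, SAMtools, deepTools and bedtools, on hg38, with versions, settings and any transposase shift not given in the sources used here. Each deposited list holds the peaks the authors called in 1 library, with their fold over local background (a ratio), −log10 p, −log10 q and a score derived from −log10 q, all computed by the authors' caller. Folds describe peaks within a list and were not tested across lists.

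Reads at each summit were solved from the deposited fold and −log10 p as a Poisson tail with a pseudocount of 1, which gave whole reads for 99.94% to 100% of summits within a tolerance of 0.001. Relative depth came from the lowest background of each library. The solving of reads was checked on data simulated with the same formula. That check covers neither the formula of the authors' caller nor the relative depth. Summits outside chromosomes 1 to 22 and X (2.07% to 2.6%) were left out, and peaks overlapping by 1 bp were merged into regions. Strand was known for 15812 of 19970 genes through RefSeq promoter sequences. Exons, introns and UTRs were not determined.

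A gene was called when its ends (1000 bp) carried a peak in each library of one group and in no library of the other. Counts are set beside those of all genes. Member regions were compared with an exact permutation test over libraries. No model was fitted, since the lists hold no counts. Named genes were the 9 members, genes sharing a peak with them, called genes of an 83-gene pathway list, and up to 4 pathway genes per member with the same library pattern, and a few results under this rule are not reported here. MTOR, RHEB, TBC1D7, RPS6KB1, AKT1S1 and the genes named as lacking peaks were picked after their values were seen. The members, lists and tests were chosen with earlier results of these data known. Alternatives were lists of equal length, a minimum −log10 q of 5, a replicate block, other windows and overlaps, the omission of each library, and reads scaled to the lowest depth, the last added after seeing the data. Python 3.11.15, numpy 2.4.6, pandas 2.3.3, scipy 1.17.1 and matplotlib 3.10.9 were used.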

Additional observations from a re-analysis of the deposited data

How the results depend on the processing

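With lists of equal length the difference in member regions reversed to -1 for V2084D minus WT and to -0.5 for V2084D shSTUB1 minus WT. In that setting 0 members instead of 4 were called for V2084D shSTUB1 against WT, as with a −log10 q of at least 5, and 1 member was called in WT against V2084D (TSC1, beside 1.74% of all genes) and 1 in WT against V2084D shSTUB1 (RICTOR, beside 1.75%). Equal length keeps fewer peaks of the longer lists, and the strict q keeps fewer peaks of all of them. With windows of 500 bp 3 members were called for V2084D shSTUB1 against WT (without PDPK1, beside 6.66% of all genes), and with 2000 bp 5 (with AKT1, beside 7.39%). With reads scaled to the lowest depth the difference in member regions was 3.5 for V2084D minus WT and 6 for V2084D shSTUB1 minus WT. With a −log10 q of at least 5 it was 2.5 and 4 in the same order. No p of the member region tests was below 0.333 in any setting.

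Leaving out single libraries moved the difference in member regions between -1 and 16 for V2084D minus WT, between -8.5 and 8.5 for V2084D shSTUB1 minus V2084D, and between 7 and 8 for V2084D shSTUB1 minus WT. Calls then ranged from 0 to 6 in V2084D against WT (6 without V2084D replicate 1, beside 18.9% of all genes) and from 0 to 1 in the reverse direction (TSC1 without V2084D replicate 2, beside 3.49%). They ranged from 0 to 5 in V2084D shSTUB1 against V2084D (5 without V2084D replicate 2, beside 10.8%) and from 0 to 1 in the reverse (RICTOR without V2084D shSTUB1 replicate 2, beside 1.33%). Against WT they ranged from 4 to 6 in V2084D shSTUB1 (6 without V2084D shSTUB1 replicate 2, beside 13.8%) and from 0 to 1 in WT (RICTOR without the same library, beside 0.305%). With the replicate block the differences in member regions were 7.5 (p = 1, exact sign flips), 0 (p = 1, exact) and 7.5 (p = 0.5, exact), where 0.5 is the smallest p that 2 pairs allow. The calls have no test that could take a block. Replicate numbers are not said to pair libraries, and over 19970 genes the replicate 1 minus replicate 2 differences in gene-end peaks correlated between groups at r = -0.06, -0.15 and 0.04 in the same order. Of 63 values of single members 38 were the same under the alternatives and 25 changed, mostly at a strict q or equal length. Depth limits what an absent peak can show.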
